A study of Mus musculus with 2 samples.

Results

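The genes for the proteins of the mitochondrial ribosome were followed in interscapular brown fat of double-knockout and wild-type mice. They were chosen by name: every probe whose gene name on the array begins with Mrpl, for the large subunit, or Mrps, for the small subunit, followed by a digit. The rule took 67 probes for 52 genes, of 41174 distinct probes on the array. Of these, 40 probes for 30 genes belonged to the large subunit and 27 probes for 22 genes to the small subunit. A probe was counted as measured where one genotype at least was well above background on both arrays, by the scanner software's own flag. This held for 66 of the 67 probes, and all 66 passed in both genotypes. The exception was a dim Mrps5 probe, for which Mrps5 has 2 other probes.

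In the double-knockout (DKO) mice, Rora, a nuclear receptor gene (RORa-/- in the labels), is among the genes lost, and the wild-type (WT) mice carry it. Both were C57BL/6 males of 2 to 3 months, collected around circadian time 20, with 4 mice named for each genotype. No tissue-specific deletion is named in the labels. Each of 2 arrays was hybridised with both genotypes. On array 1 DKO RNA carried Cy5 and WT RNA Cy3, and on array 2 the dyes were swapped. The sources used here do not say whether mice were pooled or whether the arrays share extracts. The pair of arrays was taken as 1 replicate of each genotype, no test was made, and the SD over both arrays holds dye effects, measurement error and, if the extracts differ, their spread. All ratios below are log2 of DKO over WT, so that 1 is 2-fold higher in DKO.

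Mitochondria of mammals make a small set of membrane proteins of the respiratory chain from their own DNA, on ribosomes of their own. The ribosomal RNAs of these particles come from mitochondrial DNA, while every ribosomal protein is encoded in the nucleus and imported. The small subunit binds the messenger and reads its codons, and the large subunit joins the amino acids and passes the new chain through an exit tunnel at the inner membrane. Brown adipocytes are packed with mitochondria that burn fuel to make heat, so that they hold much of this machinery. Rora encodes a receptor that binds AGGTCA preceded by A and T rich sequence, and nuclear respiratory factor 1 (NRF1), the ETS factor GABPA and YY1 are known regulators of nuclear genes for mitochondrial proteins.

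Promoter windows of 6 genes are shown. Mrps18a had the highest mean ratio, Mrps16 and Mrpl33 the lowest, and Mrps23 had probes that agreed in sign. Mrpl22 and Mrpl36 were picked because their windows hold AGGTCA, so its presence there is no finding. Each runs from 250 bases before the annotated start to 50 bases after it, in RefSeq's GRCm38.p6 annotation, 5′ to 3′ along the gene's strand. Capitals mark, on either strand, AGGTCA (the core bound by nuclear receptors), GCGCA, any base, then GCGC (NRF1), CCGGAAG (ETS) and AAGATGGCG (YY1).
Mrps18a, chr17:46110754-46111053, plus strand: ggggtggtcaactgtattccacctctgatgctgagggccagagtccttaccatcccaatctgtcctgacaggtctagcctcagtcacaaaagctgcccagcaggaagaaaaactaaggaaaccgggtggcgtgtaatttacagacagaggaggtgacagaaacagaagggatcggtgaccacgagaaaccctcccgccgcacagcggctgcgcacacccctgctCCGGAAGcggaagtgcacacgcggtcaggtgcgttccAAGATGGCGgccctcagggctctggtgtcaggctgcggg
Mrps23, chr11:88204138-88204437, plus strand: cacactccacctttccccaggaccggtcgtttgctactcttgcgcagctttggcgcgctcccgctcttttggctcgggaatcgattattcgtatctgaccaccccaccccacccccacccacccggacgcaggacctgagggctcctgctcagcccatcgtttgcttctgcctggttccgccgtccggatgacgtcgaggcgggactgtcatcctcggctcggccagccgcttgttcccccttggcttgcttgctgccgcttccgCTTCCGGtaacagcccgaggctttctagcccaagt
Mrpl22, chr11:58171414-58171713, plus strand: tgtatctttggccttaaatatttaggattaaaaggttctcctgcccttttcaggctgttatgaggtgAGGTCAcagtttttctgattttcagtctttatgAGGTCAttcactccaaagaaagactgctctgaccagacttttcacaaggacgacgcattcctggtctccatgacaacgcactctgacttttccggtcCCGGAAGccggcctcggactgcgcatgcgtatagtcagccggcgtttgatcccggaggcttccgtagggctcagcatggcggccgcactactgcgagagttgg
Mrpl36, chr13:73330759-73331058, plus strand: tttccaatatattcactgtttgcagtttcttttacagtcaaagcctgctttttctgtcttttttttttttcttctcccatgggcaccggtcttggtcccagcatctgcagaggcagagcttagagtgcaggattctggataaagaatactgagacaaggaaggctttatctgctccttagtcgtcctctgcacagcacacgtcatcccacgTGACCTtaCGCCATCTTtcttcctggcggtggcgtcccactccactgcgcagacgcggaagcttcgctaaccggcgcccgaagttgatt
Mrps16, chr14:20393441-20393740, minus strand: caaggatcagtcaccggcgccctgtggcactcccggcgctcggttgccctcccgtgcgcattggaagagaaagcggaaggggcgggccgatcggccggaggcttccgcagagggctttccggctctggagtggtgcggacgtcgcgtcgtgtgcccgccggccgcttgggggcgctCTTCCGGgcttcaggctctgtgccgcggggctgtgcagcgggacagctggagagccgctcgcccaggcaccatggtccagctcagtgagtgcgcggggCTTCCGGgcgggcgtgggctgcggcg
Mrpl33, chr5:31613701-31614000, plus strand: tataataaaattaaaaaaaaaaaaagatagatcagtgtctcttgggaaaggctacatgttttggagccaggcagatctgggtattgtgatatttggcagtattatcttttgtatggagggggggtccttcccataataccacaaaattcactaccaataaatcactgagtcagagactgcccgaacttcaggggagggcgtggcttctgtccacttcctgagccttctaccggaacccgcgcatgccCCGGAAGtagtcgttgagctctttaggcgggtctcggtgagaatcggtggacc
The Mrpl22 window holds AGGTCA at 2 places and an ETS match downstream of both. The Mrpl36 window holds AGGTCA on the opposite strand, next to a YY1 match that is also on the opposite strand. The Mrps18a window holds an ETS and a YY1 match, and the Mrps16 window holds 2 ETS matches on the opposite strand. Mrps23 and Mrpl33 have 1 ETS match each. Mrps16 has a second annotated start, whose window holds 0 of these matches and is not shown.

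Across the promoter windows the same letters were counted in full. Windows were found for 45 of the 52 genes, 48 windows in all, and were set beside all 32851 windows of the same length in the RefSeq table, with both strands searched. The extended receptor motif, TAGGTCA preceded by A and any 2 bases, was in 0 of the 48 windows and in 0.70% of all windows. TAGGTCA alone, which the extended motif contains, was also in 0 of 48, against 2.61% of all windows. The core AGGTCA, contained in both, was in 6 windows (12.5%, against 16.3% of all): those of Mrpl22, Mrpl36 and Mrpl43 of the large subunit and Mrps15, Mrps21 and Mrps22 of the small subunit. CCGGAAG was in 16 windows (33.3%, against 8.86%), AAGATGGCG in 6 (12.5%, against 1.40%), and the NRF1 motif in 5 (10.4%, against 4.60%). GGGCGG, the GC box bound by SP1, was in 27 windows (56.3%, against 35.7%). A match describes letters in a window and not a bound site.

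**Figure D1:**
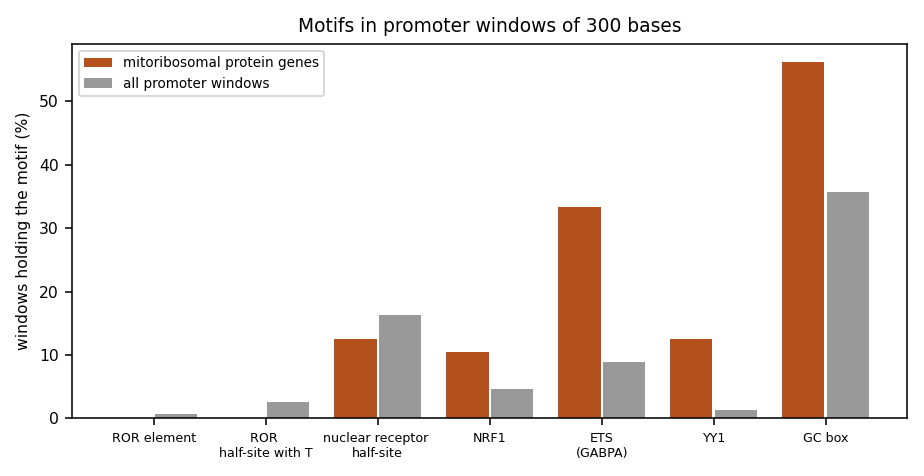
Share of 300-base promoter windows holding each motif (%), for the 48 windows of mitochondrial ribosomal protein genes (left bar of each pair) and all 32851 windows (right bar). The ETS motif stands at 33.3% against 8.86%, and the AGGTCA core at 12.5% against 16.3%. The 2 longer receptor motifs are at 0 in the ribosomal protein genes, against 0.70% and 2.61% of all windows.

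Ratios of genes with and without a motif are given as a description. The 6 probes of genes with AGGTCA had a median ratio of 0.09, with 4 above 0 on both arrays and 1 below, against a median of 0.01 over 52 probes of genes without it. For CCGGAAG, 20 probes of genes with the motif had a median of 0.06 and 38 probes of genes without it a median of 0.01. For the YY1 motif the medians were 0.07 over 6 probes with it and 0.02 over 52 without. The NRF1 motif and the GC box went the other way. Their medians were −0.02 over 7 probes with the NRF1 motif and 0.03 over 51 without, and 0.01 over 32 probes with the GC box and 0.09 over 26 without. Counts above and below 0 on both arrays were 8 and 5 of 20 for CCGGAAG and 2 and 1 of 6 for YY1. They were 1 and 2 of 7 for NRF1, and 6 and 7 of 32 for the GC box. Over all measured probes the shares were 19.5% above and 17.8% below. The AGGTCA count rests on 6 probes and was not tested.

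The knocked-out gene and the tissue were looked at first. One Rora probe had processed signals (the scanner software's background-subtracted, dye-normalised intensities) of 470 and 370 in DKO, against 886 and 747 in WT. The other Rora probe had 217 and 204 in DKO, against 581 and 625 in WT. Both were lower in DKO on each array, at −0.38 ± 0.04 and −0.47 ± 0.10 (mean ± SD, n = 2 arrays). The offset used in processing shrinks ratios of dim probes such as these. The scanner software's own ratios were −0.96 ± 0.07 and −1.52 ± 0.14. Both probes stayed above background in DKO, and the sources used here do not say whether they lie in the deleted part. Of 11 brown adipocyte marker probes all were measured, with a median of 0.54, 7 above 0 on both arrays, 1 below and 3 split. Cidea, a lipid droplet protein, was the probe below, at −0.14, and Ucp1, the uncoupling protein that makes heat, read 0.74 on array 1 and 0.73 on array 2. Of 11 skeletal muscle marker probes all 11 were above 0 on both arrays, with a median of 0.84, and their summed processed signal was 169699 and 232313 in DKO, against 112406 and 111212 in WT. All 11 were measured. Of 4 erythroid marker probes 3 were measured, with a median of −0.41 and 2 of them below 0 on both arrays. The 12 probes for markers of any adipocyte had a median of −0.01, with 2 above 0 on both arrays, 2 below and 8 split. Medians were 0.03 for macrophage, 0.00 for endothelium and 0.05 for T cell markers. The part of muscle or blood RNA in the results below was not tested, and in whole tissue fewer cells of a type and less RNA per cell cannot be told apart.

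No gene of the mitochondrial ribosome passed the size rule, which asks for a mean of 2-fold, at least 1.5-fold the same way on each array, and a signal well above background in the higher genotype. The count was 0 of 66 probes higher and 0 of 66 lower in DKO, where 0.0987% and 0.0216% of the 32421 measured probes of the array passed (0.12% in either direction). Counted in the dye direction, with Cy5 over Cy3 in place of DKO over WT, the same fold limits also took 0 of 66, against 0.00308% of all measured probes. That count asked for both genotypes to be well above background, a stricter filter than in the genotype direction. A looser rule of 1.5-fold in the mean also took 0 of 66, against a background of 0.321% higher and 0.228% lower (0.549% in all). The ratios ran from −0.21 for Mrps16 to 0.32 for Mrps18a. The median over the 66 probes was 0.02, beside 0.00 over all measured probes. On simulated arrays the fold limits of the rule, without its background condition, recovered 53 of 100 probes changed 2-fold, a change that equals the limit. They recovered 100 of 100 changed 4-fold. Dye effects particular to a probe were not simulated, so these shares do not give the recovery on the real arrays. Differences well under 2-fold lie outside the reach of the rule by definition.

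The large and the small subunit differed by less than the arrays did. The 40 large subunit probes had a median of 0.01, with −0.04 on array 1 (DKO in Cy5) and 0.03 on array 2 (DKO in Cy3). The 26 small subunit probes had a median of 0.05, with −0.05 and 0.15 on the same arrays. The large minus small difference was −0.04, made up of 0.01 on one array and −0.12 on the other (SD 0.10 over the 2 arrays), so its sign was not shared. Probe means ran from −0.19 to 0.29 in the large subunit and from −0.21 to 0.32 in the small subunit, so that the subunits overlapped along nearly their whole range. Structures place the Mrps18a protein in the large subunit, and Mrps36 has been reassigned to the alpha-ketoglutarate dehydrogenase complex. With Mrps18a counted as large and Mrps36 left out, the difference was −0.03, with 0.09 on array 1 and −0.11 on array 2.

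**Figure D2:**
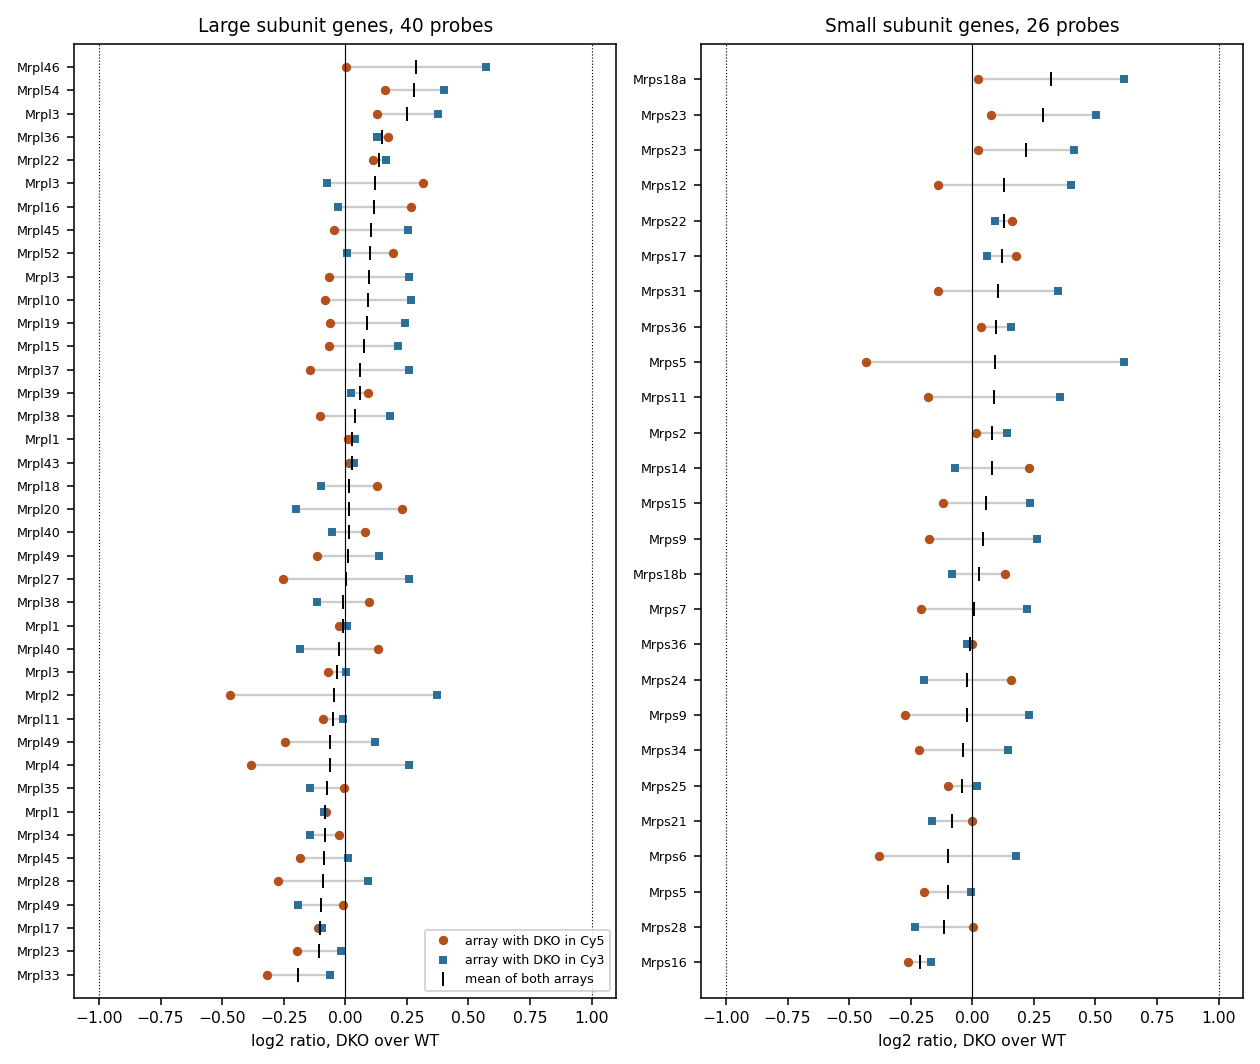
Log2 ratio of DKO over WT for the 40 large subunit probes (left) and 26 small subunit probes (right), sorted by their mean, with circles for array 1 (DKO in Cy5), squares for array 2 (DKO in Cy3) and ticks for the mean. Dotted lines mark 2-fold. All probes lie inside them, and for 38 of the 66 the arrays fall on opposite sides of 0.

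Signs were set beside the background for the whole array. Of the 66 probes, 16 were above 0 on both arrays (24.2%, against 19.5% of all measured probes) and 12 were below 0 on both (18.2%, against 17.8%). In the other 38 the arrays disagreed (57.6%, against 62.7%). Among the 3218 brighter probes of the array (average log2 intensity of at least 9), 19.3% were above, 18.9% below and 61.8% split. By subunit, 9 of 40 large and 7 of 26 small subunit probes were above 0 on both arrays, and 8 large and 4 small subunit probes were below. The shares lie near the background.

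The ratios of these genes spread more in the dye direction than in the genotype direction. Across the 66 probes the ratios of the 2 arrays had a Pearson r of −0.32 as DKO over WT, which is 0.32 as Cy5 over Cy3. This r is across probes that share both arrays, and is a description. The spread over probes was 0.11 (SD) in the genotype direction and 0.16 in the dye direction. Of the 66 probes, 44 had a higher DKO over WT ratio on array 2 than on array 1, 26 of 40 in the large and 18 of 26 in the small subunit. The same share was not counted over all measured probes, so this count cannot be read as a trait of these genes. Over all 32421 measured probes r was −0.02, with an SD of 0.12 in each direction. Over the 3218 brighter ones r was 0.10, with SDs of 0.23 (genotype) and 0.21 (dye). The median size, with the sign dropped, was 0.08 (genotype) and 0.13 (dye) for the members. It was 0.04 and 0.06 over all measured probes, and 0.08 and 0.12 over the brighter ones. By that measure the dye direction was also larger across the array. For the 66 respiratory chain probes r was −0.32, with SDs of 0.15 and 0.21 in the genotype and dye directions. For the 72 cytosolic ribosomal protein probes it was −0.18, so the pattern was also read in those lists. Opposite ratios of at least 0.1 on each array were read for 20 of 66 probes (30.3%), 9 in the large and 11 in the small subunit, against 14.1% of all measured probes and 29.5% of the brighter ones.

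**Figure D3:**
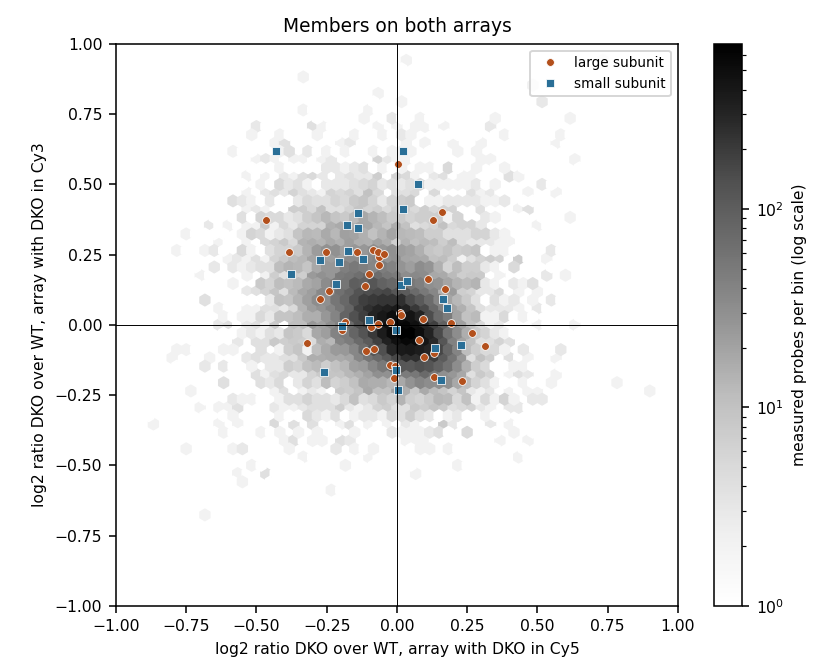
Log2 ratio of DKO over WT on array 1 (DKO in Cy5, x axis) against array 2 (DKO in Cy3, y axis), for large subunit probes (circles), small subunit probes (squares) and all measured probes (grey bins, log scale, with 118 probes beyond the axes not drawn). The upper left field, for probes below 0 on array 1 and above 0 on array 2, holds an Mrps5 probe at −0.43 and 0.62.

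The probes that disagreed most were Mrps5, Mrpl2 and Mrpl4. Mrps5, at the messenger entry of the small subunit, had processed signals of 3868 and 6786 in DKO, against 5496 and 4161 in WT on probe A_52_P650288. Its ratios were −0.43 and 0.62. Mrpl2, a core protein near the peptidyl transferase centre, had 2732 and 4504 in DKO, against 4114 and 3242 in WT, with ratios of −0.47 and 0.37. Mrpl4, grouped here with the proteins near the peptidyl transferase centre, had ratios of −0.38 and 0.26. In each case the genotype in Cy3 gave the higher signal on both arrays, and the means over both arrays were 0.09, −0.05 and −0.06. By the deposited error-model p-values, which cover measurement error on one array, Mrps5 and Mrpl2 were under 0.01 on both arrays in opposite directions (2 of 66 probes, against a background of 0.605%). No probe was under 0.01 on both arrays in the same direction (0 of 66, against 0.916%). On array 1 alone 3 of 66 were under 0.01 (against 4.52%), and on array 2 alone 9 of 66 were (against 5.09%).

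The highest ratios came mostly from array 2, where DKO was in Cy3. Mrps18a had processed signals of 6453 and 8109 in DKO, against 6358 and 5010 in WT. The genotypes nearly matched on the first array and DKO was higher on the second, at ratios of 0.02 and 0.62 and a mean of 0.32 ± 0.42 (SD, n = 2 arrays). Mrpl46, a protein of the central protuberance without a bacterial counterpart, had 3475 and 5580 in DKO, against 3426 and 3523 in WT. Its mean was 0.29 ± 0.40, again with a ratio of 0.00 on the first array. Mrps23, a mitochondria-specific protein of the small subunit, was read by 2 probes, with means of 0.29 ± 0.30 and 0.22 ± 0.27. Probe A_51_P338542 gave 2800 and 4589 in DKO, against 2686 and 3000 in WT, and probe A_52_P5420 gave 3211 and 3859 in DKO, against 3234 and 2675 in WT. For 3 of these 4 probes the first array differed by less than 0.03, and for A_51_P338542 by 0.08.

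Single probes of a few large subunit genes were higher in DKO by at least 0.1 on each array. Mrpl54, a mitochondria-specific protein, had processed signals of 12334 and 14396 in DKO, against 10880 and 10887 in WT. Both DKO signals lay above both WT signals, and the mean was 0.28 ± 0.17. Mrpl3, whose bacterial relative reaches towards the peptidyl transferase centre, had 2029 and 3192 in DKO on probe A_52_P480373, against 1802 and 2263 in WT, with a mean of 0.25 ± 0.17. The other Mrpl3 probes were split between arrays. The brighter A_52_P606303 read 0.31 and −0.08 and A_51_P348976 read −0.07 and 0.26, while the dim A_52_P679491 read −0.07 and 0.00. Mrpl36, a very small zinc-binding protein in bacteria, had 10460 and 11772 in DKO, against 9101 and 10918 in WT, and ratios of 0.17 and 0.13. Mrpl22, a wall protein of the exit tunnel, had 2780 and 3204 in DKO, against 2482 and 2790 in WT, and ratios of 0.11 and 0.16. The probes that met the limit, 4 of 66, are 6.06%, where 3.34% of all measured probes and 9.38% of the brighter ones met it. The limit was chosen after the values were seen. With median centring Mrpl54 read 0.52 and 0.30 and Mrpl3 probe A_52_P480373 read 0.34 and 0.30. Under that setting Mrpl36 read 0.53 and 0.03 and Mrpl22 0.38 and 0.08, so that 2 of the 4 no longer met the limit.

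Mrps16 was the one member lower in DKO by at least 0.1 on each array (1.52%, against 2.83% of all measured probes and 7.58% of the brighter ones). Mrps16 is a small subunit protein with a bacterial homologue, and mutation of the human gene causes a mitochondrial disease. It had processed signals of 32790 and 41368 in DKO, against 38820 and 47066 in WT. On each array DKO was the lower genotype, at −0.26 and −0.17 with a mean of −0.21 ± 0.06, although the second DKO signal was above the first WT signal. With each array centred on its median in place of the intensity-dependent correction, the ratios became 0.11 and −0.25. Mrpl33, a small large-subunit protein kept from bacteria, had 38572 and 45980 in DKO, against 47708 and 48514 in WT, with ratios of −0.32 and −0.06. Mrpl23, at the exit tunnel, had a mean of −0.11 ± 0.13. Mrpl17 had ratios of −0.11 and −0.09, and one Mrpl1 probe −0.08 and −0.09. After the intensity-dependent correction, close agreement between dyes was thus also found at small sizes. With median centring Mrpl33 read 0.05 and −0.15, with a mean of −0.05. Under the same setting the means of Mrpl17 and Mrpl23 were 0.03 each, and that of the Mrpl1 probe was 0.02. There the arrays took opposite signs, at 0.25 and −0.19 for Mrpl17 and 0.17 and −0.11 for Mrpl23. The Mrpl1 probe read 0.22 and −0.18, so its close agreement and that of Mrpl17 were not kept.

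The brightest members were read well above background and still differed between arrays. Mrpl20, a large subunit protein with a bacterial homologue needed for subunit assembly in bacteria, had 59775 and 62439 in DKO, against 50200 and 72237 in WT, with ratios of 0.23 and −0.20. Mrpl28 had 40151 and 53802 in DKO, against 48091 and 50832 in WT, with ratios of −0.27 and 0.09. No member spot was saturated, and none was left out as an outlier.

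By position in the ribosome, the medians of the groups ran from −0.02 to 0.05, while those of single arrays lay much farther apart. Near the peptidyl transferase centre they were −0.07 on array 1 and 0.26 on array 2, and at the decoding site and head −0.17 and 0.23. On the platform they were −0.15 and 0.21, and at the messenger entry −0.20 and −0.00. The central protuberance went the other way, at 0.09 on array 1 and −0.08 on array 2. At the base of the stalk that recruits translation factors, Mrpl10 read 0.09 ± 0.25 and Mrpl11 read −0.05 ± 0.06. The 8 probes of proteins near the peptidyl transferase centre (Mrpl2, Mrpl3, Mrpl4, Mrpl16 and Mrpl27) had a median of 0.05, with 1 above 0 on both arrays and 7 split. At the exit tunnel, the 4 probes of Mrpl22, Mrpl23 and Mrpl45 had a median of 0.01. Mrpl45, which tethers the tunnel to the inner membrane, read −0.09 and 0.10 on its 2 probes. The 6 probes of the central protuberance (Mrpl18, Mrpl38, Mrpl40 and Mrpl46) had a median of 0.01, and only Mrpl46 was above 0 on both arrays.

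In the small subunit, all 5 probes of the decoding site and head were split between arrays, with a median of 0.04. Among them Mrps12, a decoding site protein, read 0.13 ± 0.38, Mrps7 read 0.01 ± 0.30, Mrps14 read 0.08 ± 0.21, and Mrps9 read −0.02 and 0.04 on its 2 probes. At the messenger entry, Mrps24 read −0.02 ± 0.25 beside Mrps5. On the platform, Mrps6 read −0.10 ± 0.39, Mrps11 read 0.09 ± 0.38 and Mrps15 read 0.06 ± 0.25. Mrps21 read −0.08 ± 0.11. It lies within 10 Mb of a targeted locus in the RefSeq table, as do Mrpl9 and Mrpl24. None of the 3 passed the size rule, against 0.12% of all measured probes.

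Proteins inherited from the bacterial ancestor and proteins added in mitochondria gave close medians. The 43 probes with a bacterial homologue had a median of 0.01, with 7 above 0 on both arrays (16.3%) and 10 below (23.3%). The 23 probes of mitochondria-specific proteins had a median of 0.04, with 9 above (39.1%) and 2 below (8.70%). Over all measured probes the shares were 19.5% above and 17.8% below. The 23 include Mrps36 probes A_51_P190697, above 0 on both arrays, and A_51_P190690, below on both, although Mrps36 has been reassigned. The difference in counts was not tested. With the scanner software's ratios the counts were 6 above (14.0%) and 9 below (20.9%) for bacterial homologues. For mitochondria-specific proteins they were 6 above (26.1%) and 2 below (8.70%), against 18.6% and 18.3% of all measured probes.

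Different probes of one gene often differed in sign. Of 10 genes with several measured probes, 9 had probe means of both signs, and the probes of one gene lay 0.04 to 0.29 apart. Mrpl3 had the widest range over its 4 probes, from −0.03 to 0.25. The 3 probes of Mrpl1 ran from −0.08 to 0.03 and the 3 of Mrpl49 from −0.10 to 0.01. Mrpl38 read −0.01 and 0.04, Mrpl40 −0.03 and 0.01, and Mrps36 −0.01 and 0.10. Of these 10 genes, only Mrps23 had probes that shared a sign. Probes of a gene may read different transcript ends, and the probe sequences were not used here.

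Probes for mitochondrial ribosomal proteins that carry a clone name, an accession or another symbol on this array were added through RefSeq accessions and the array's descriptions. These were 46 probes, 45 of them measured, and none passed the size rule, against 0.12% of all measured probes. Their median was 0.00, with 7 above 0 on both arrays (15.6%) and 6 below (13.3%), against 19.5% and 17.8% of all measured probes. Mrps10, of the small subunit head, had the highest mean at 0.20 ± 0.11, and Mrpl50 the lowest under a ribosomal symbol at −0.19 ± 0.17. Mrps30, which structures place in the large subunit, read 0.02 ± 0.07. Mrpl9 read 0.03 ± 0.35 and Mrpl24 0.11 ± 0.13. Mrpl12, the stalk protein, was the most split, at −0.65 and 0.53. A list of ribosomal proteins known under symbols of their own, which overlaps these probes in part, had 11 measured probes. Their median was 0.01, with 0 above 0 on both arrays and 3 below (27.3%). Among them Chchd1, a small subunit protein, had both probes lower in DKO on both arrays, at −0.23 ± 0.14 and −0.21 ± 0.10. The genes singled out here were picked once their values had been seen.

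Genes that work with the mitochondrial ribosome were read in the same way, and none of these lists held a gene that passed the size rule. Of all measured probes 0.12% passed it, so a count of 0 in lists this short is near the background. The 17 probes of translation factors had a median of 0.00, from Lrpprc, which keeps mitochondrial messengers stable, at −0.22 ± 0.21 to the recycling factor Mrrf at 0.20 ± 0.17. The 21 measured probes of aminoacyl-tRNA synthetases had a median of −0.00, from Vars2 at −0.31 ± 0.13 to Yars2 at 0.23 ± 0.21. The 20 probes of assembly and ribosomal RNA modification factors had a median of 0.03, from Mrm1 at −0.08 ± 0.14 to Mrm3 at 0.17 ± 0.26. The 23 probes of transcription and DNA maintenance genes had a median of 0.05, from Nrf1 at −0.10 ± 0.09 to Ppargc1a, a coactivator of mitochondrial biogenesis, at 0.54 ± 0.04. The related coactivator Ppargc1b read 0.43 ± 0.31 and 0.43 ± 0.36 on its 2 probes.

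Outside mitochondrial translation, the cytosolic ribosomal proteins (72 measured probes) had a median of −0.00. Of these, 11 were above 0 on both arrays (15.3%, against 19.5% of all measured probes) and 17 below (23.6%, against 17.8%). The nuclear-encoded subunits of the respiratory chain (66 probes), which assemble with the subunits that the mitochondrial ribosome makes, had a median of 0.04. Here 19 were above (28.8%) and 9 below (13.6%), and these counts were not tested. Their array medians ran the other way from those of the ribosome, at 0.09 on array 1 and −0.04 on array 2.

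**Figure D4:**
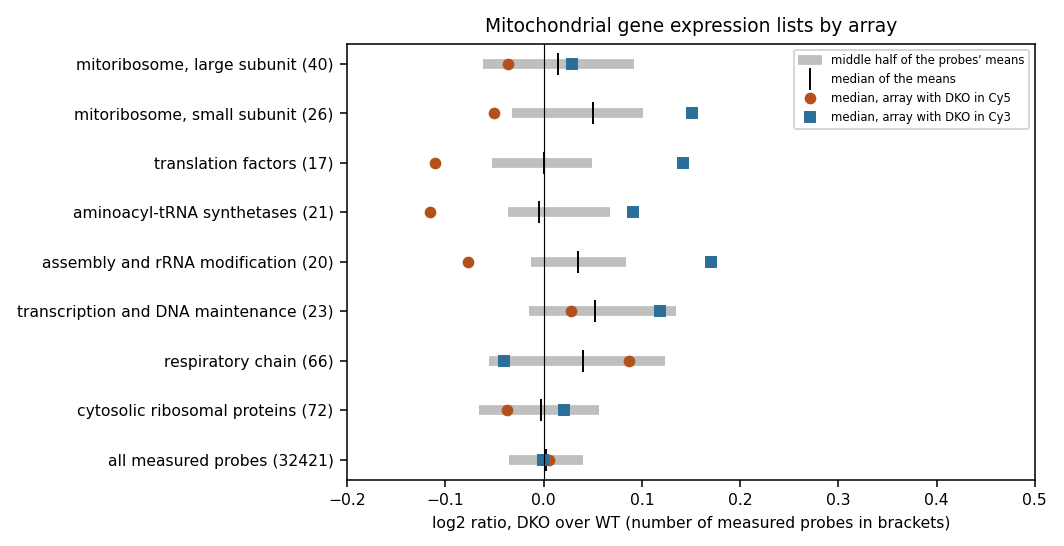
Median log2 ratio of DKO over WT per list, as ticks for the mean of both arrays, circles for array 1 (DKO in Cy5) and squares for array 2 (DKO in Cy3), with bars from the lower to the upper quartile of the probe means and probe numbers in brackets. The list medians lie between −0.00 and 0.05, while single-array medians reach −0.12 and 0.17.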

How the data were processed

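RNA of brown fat from DKO and WT mice was measured on 2 two-colour Agilent arrays with reversed dyes. Images were read by the authors in Agilent Feature Extraction 7.5, per the submitters' processing notes. The deposited files hold, per the file headers, mean and background signals as intensity, processed signals, log10 ratios of red over green, and the p-value that the error model gives each ratio. The deposited value table holds log2 ratios by comparison with the scanner ratios (40962 of 41001 and 41101 of 41141 values within 0.001), and both columns had a median of 0. Starting RNA is given as 100 ng in one label and 500 ng in another.

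Mean signals were corrected with normexp (offset 50) against median local background and loess-normalised within each array in limma 3.58.1 under R 4.3.3, with control spots at weight 0. The offset shrinks ratios of dim probes. Outlier spots were left out (171 and 29), ratios of array 2 (DKO in Cy3) were turned to DKO over WT, and spots of a probe, then arrays, were averaged, which left 40979 probes with values and 32421 measured. DKO was well above background at 85.4% and 77.6% of spots, and WT at 80.0% and 80.2%. The number of arrays limits the precision. The fold limits of the size rule, without its background condition, were run on simulated arrays of 41534 spots and called 0 unchanged probes. The simulated dye effect depended on intensity alone. Dye effects particular to a probe were not simulated, so the simulation cannot give the rate of false calls or of missed changes on the real arrays.

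Genes were named through RefSeq's GRCm38.p6 table, which matched 58 member probes by accession and 9 by symbol. Members, lists and rules were chosen with earlier results of these data known. Named genes were called members, the 6 highest and 6 lowest with 1 sign, the 4 brightest, members of the position lists, members near a targeted locus, those whose symbol and structural place differ, those whose probes disagree in sign, and list extremes. Any other gene was picked once its values had been seen. The second targeted gene is not reported here. Alternatives were other offsets, signals, ratios, centring, filters, probe choices, subunit assignments and single arrays.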

Additional observations from a re-analysis of the deposited data

How the results depend on the processing

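The counts of 0 members called higher and 0 called lower stayed 0 in all alternatives run, also with probes outside the symbol rule added (an alternative chosen after seeing the data), and the counts above or below 0 on both arrays stayed within 1.5 times of 16 and 12 except with median centring. Centring each array on its median in place of loess moved the median of all members to 0.12 and that of the large subunit to 0.12, with 28 members above 0 on both arrays and 2 below. The same setting gave a median of 0.04 over all measured probes and of 0.14 over the brighter ones. With 1 array alone the large subunit median ranged from −0.036 to 0.029, the small subunit median from −0.05 to 0.15 and the median of all members from −0.04 to 0.09. The large minus small difference ranged from −0.12 to 0.01 with 1 array alone. In the other alternatives, changed one at a time, it ran from −0.06 to −0.02. With subunits assigned by structure and median centring together, it was 0.003. Of 50 named probes, 33 kept the sign of their mean with median centring, 48 with the software's ratios, and 34 and 35 with the first or the second array left out. Counts of both signs cannot be had from 1 array. No paired analysis was possible because no test was made with 1 replicate per genotype. Every ratio already sets DKO against WT within an array. Dim probes limit what can be read: the offset shrinks their ratios, and 1 Mrps5 probe was not well above background.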
